A study of Danio rerio with 3 samples.

Results

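The small RNAs of control zebrafish larvae at 7 days post fertilisation (dpf) were described from 1 library of whole bodies. Members were the rows with a zebrafish miRNA name in the control column of the three-library table, with 1 row kept per sequence. They came to 497 of the 1202 distinct sequences in that table, and 414 of them had a count above 0. The counts were summed by arm (the 5p or 3p side of the hairpin) and by family (the miRNA's number), and a share is the part of all counts in the control library.

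The study set larvae of unexposed parents beside larvae of parents exposed to DKA, a mixture of 6 antibiotics at equal weight (ofloxacin, ciprofloxacin, enrofloxacin, doxycycline, chlortetracycline and oxytetracycline). The control larvae were wild type, of the AB strain and of the F1 generation, and their parents were the 0 mg/L group of an exposure that began at 6 hours post fertilisation and lasted 90 days. No tissue was dissected, and how many larvae went into the library is unknown here. In bulk RNA of a whole body, fewer cells of a type and less RNA per cell cannot be told apart. With 1 library there was no replicate, so the values below are a description without a test, and their 95% intervals are exact binomial (Clopper-Pearson) intervals of rounded counts. The intervals cover counting error only, since PCR reads without molecular identifiers are not independent molecules. How evenly the library preparation captured different sequences was not tested. Ranks and ratios between sequences are therefore those of counts and need not be those of molecules in the larvae.

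A miRNA is cut from a hairpin transcript by Drosha and Dicer as a short duplex, and one strand is kept by an Argonaute protein while the other is mostly degraded. Pairing to messenger RNAs is set mainly by the seed, the bases near the 5′ end, so a change of the 5′ end changes the seed and a change of the 3′ end does not. Paralogs of a family usually share a seed and differ elsewhere, and many families are known for 1 tissue.

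The leading sequence of each of the 10 most abundant arms is shown because these arms held most of the library. The seed (bases 2 to 8) is in capitals, T stands for U as in the deposited table, and the miR-26a-5p sequence is filed with a substitution.
miR-181a-5p: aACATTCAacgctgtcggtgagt
miR-26a-5p: tTCAAGTAatccaggataggtt
miR-30e-5p: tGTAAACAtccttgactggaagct
miR-10b-5p: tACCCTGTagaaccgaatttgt
miR-10c-5p: tACCCTGTagatccggatttgt
miR-181b-5p: aACATTCAttgctgtcggtgggt
miR-9-5p: tCTTTGGTtatctagctgtatg
miR-192: aTGACCTAtgaattgacagcca
miR-21: tAGCTTATcagactggtgttggc
miR-205-5p: tCCTTCATtccaccggagtctg
The miR-181a and miR-181b sequences share the seed ACATTCA, and the miR-10b and miR-10c sequences share ACCCTGT.

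The control library held 4534557 counts over all distinct sequences, and 97.2% of them (97.21% to 97.24%) stood under zebrafish names. Those names made up 278 arms in 119 families, of which 218 arms and 105 families had at least 10 counts. The 83 zebrafish-named sequences at 0 counts could each hold up to 6.616e-05% of the library, which is the limit that a count of 0 allows (3 counts). Several sequences that zebrafish larvae may carry, among them some forms of miR-1 and miR-206, were not analysed here, so shares are shares of the table as used.

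The repertoire was concentrated in a few families. The 5 most abundant families held 52.1% of the counts, the 10 most abundant 69.5% and the 20 most abundant 83.9%. The family at rank 1 stood 5.48-fold above rank 10 and 18.01-fold above rank 20. Among arms, the 10 most abundant held 56.5% (56.46% to 56.56%), while 39 arms were needed for 90% of the zebrafish-named counts and 103 for 99%.

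**Figure D1:**
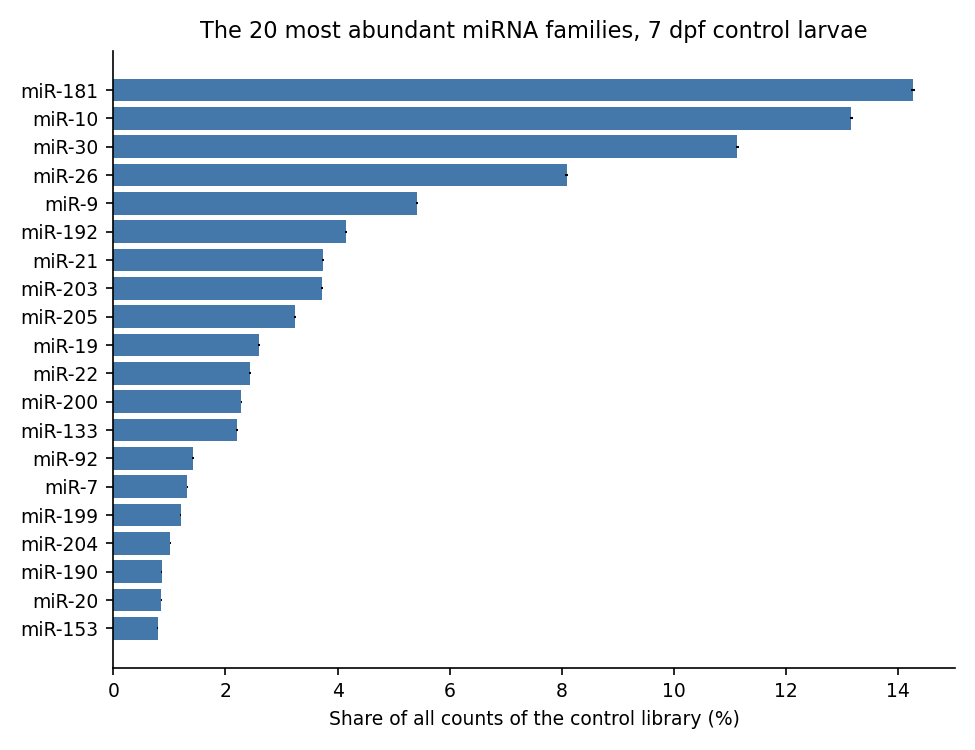
Bars show the share of all counts of the control library (%) held by each of the 20 most abundant families, and the small lines are exact 95% intervals for counting error. The miR-181 family led with 14.3%, 4 families stood above 8%, and the family at rank 20, miR-153, held 0.792%.

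The miR-181 family, known from lymphocyte development in mice and from retinal circuits in medaka, led with 646830 counts or 14.3% of the library (14.23% to 14.30%). Its miR-181a member held 64.2% of the family and miR-181b held 35.8%. The miR-10 family, whose genes lie inside the Hox clusters, followed with 596985 counts or 13.2%. Within it, miR-10b held 48.0%, miR-10c 39.6% and miR-10d 12.5%, so no single paralog accounted for the family. The miR-30 family, known from kidney development in Xenopus, held 504846 counts or 11.1%, of which miR-30e gave 68.5%, miR-30c 15.5% and miR-30d 14.8%.

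The miR-26 family, encoded within introns of the ctdsp phosphatase genes, stood at rank 4 with 8.09%. Most of that count lay on 1 sequence, which the table names as miR-26a-5p with the substitution C21T (annotated base, position from 1 at the read's 5′ end, base in the read). That sequence held 308124.5 of the 366691 counts of the family, and without substituted sequences the family stood at 1.29% and rank 14. All counts of the family stood under the name miR-26a, while the RefSeq table lists 4 gene loci for the family against 3 for miR-26a. Whether the letters of this sequence belong to another member of the family was not tested, so its name and its substitution are those of the deposited table. The miR-9 family, which acts in neural progenitors of the zebrafish brain, held 5.41%.

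Rank 6 was held by miR-192, a family expressed in intestine and kidney, with 188242 counts or 4.15%. The miR-21 family, needed for heart valve formation in zebrafish, held 3.74%. The skin families miR-203 and miR-205 held 3.72% and 3.24%.
The next families were close to each other in level. The miR-19 family of the miR-17-92 cluster held 2.60%, miR-22 held 2.44%, the epithelial miR-200 family held 2.28% and the muscle family miR-133 held 2.20%. Their intervals did not overlap, but with 1 library this order has no replicate check.

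Ranks 14 to 20 lay between 0.792% and 1.42%. They were, in order, miR-92 of the miR-17-92 cluster and its paralogs (1.42%), miR-7 of neuroendocrine cells (1.32%) and miR-199 of mesenchyme (1.20%). Then came miR-204 of the retinal pigment epithelium and lens (1.02%). The last were miR-190 (0.867%), miR-20 of the miR-17-92 cluster and its paralogs (0.856%) and the neuronal miR-153 (0.792%). The last 3 were close in level, and miR-190 and miR-20 had touching ranges, 0.858% to 0.875% and 0.848% to 0.865%. The miR-141 family followed at rank 21 with 0.769%.

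A pair of names in the epithelial group shared their letters. The sequence filed under miR-141-3p with C22T is the sequence of miR-200a-3p without its last base, and they are set side by side here for that reason.
miR-200a-3p: tAACACTGtctggtaacgatgtt
miR-141-3p: tAACACTGtctggtaacgatgt
The first held 102327.5 counts and the second 34788.5. Counted under 1 name they would give the miR-200 family 3.05% and rank 10 in place of 2.28% and rank 12. A like case was miR-20b-5p with C10T, whose 12194 counts have the letters of miR-17a-5p. Moved to that name, they would leave the miR-20 family at 0.587%. In all, 19 substituted sequences with at least 10 counts had the letters of another miRNA name, so counts of single paralogs follow the names as deposited.

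Grouping sequences by seed in place of family changed little at the top. The seed ACATTCA of miR-181a and miR-181b held 13.9% of the counts, ACCCTGT of the miR-10 paralogs 13.1% and GTAAACA of the miR-30 paralogs 10.9%. Of the 188 seeds with at least 10 counts, 14 were shared by more than 1 family. Among these, AACACTG of miR-200a-3p and miR-141-3p held 3.02%, and ATTGCAC of miR-92a-3p, miR-92b-3p and miR-363-3p held 1.49%.

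Families known for a tissue or function were placed in 21 lists with 59 families, and 54 of these families had a zebrafish-named row. The lists together held 49.4% of the counts, and zebrafish-named sequences outside them held 47.8%. The Hox cluster list (miR-10 and miR-196) was the highest with 13.3%, nearly all of it from the 5p arms of miR-10b, miR-10c and miR-10d. It was followed by skin with 6.96%, neural progenitor with 5.41%, miR-17-92 and its paralogs with 5.28% and gut and kidney with 4.18%. In the miR-17-92 list the leading arms were miR-19b-3p with 86905 counts, miR-92a-3p with 47529 and miR-19a-3p with 30534. The lists spanned from 13.3% to 0.00141%, and each list is a sum over few families.

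**Figure D2:**
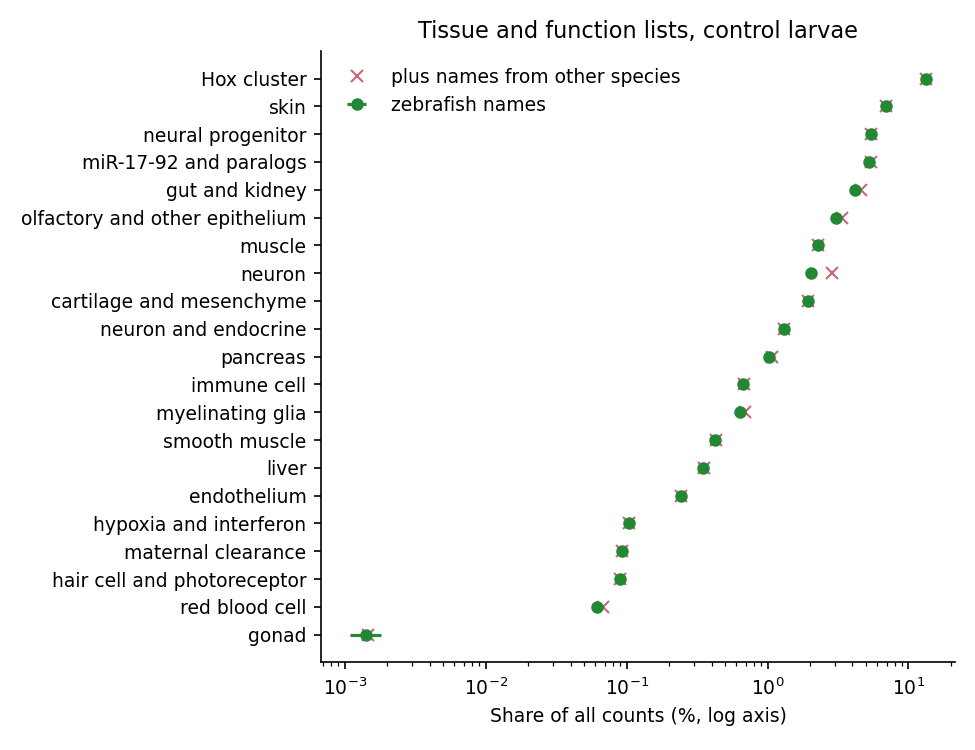
Points show the share of all counts (%, log axis) of each of the 21 lists under zebrafish names, with exact 95% intervals for counting error, and crosses add sequences named for other species. The lists run from 13.3% for the Hox cluster to 0.00141% for gonad, and the cross for neurons lies at 2.88% against a point at 2.02%.

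In skin, miR-205-5p held 146860.5 counts, miR-203b-3p held 118713 and miR-203a-3p held 45739. These miRNAs mark stratified epithelia, where miR-203 is known in mice to limit the progenitor factor p63. Both families contributed strongly, with miR-205-5p giving 46.5% of the list and miR-203b-3p giving 37.6%. The other epithelial list, of miRNAs known to repress the zeb factors, held 3.07%. There miR-200a-3p gave 73.5%, miR-141-3p most of the rest with 34792.5 counts, and miR-200a-5p held 1090.6.

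Under zebrafish names, miR-192 gave 99.4% of the gut and kidney list, while miR-194b and its 3p arm held 865 and 213 counts. A further 19030.5 counts of this list stood under names of other species, 17338 of them on the sequence filed as anole miR-194-5p, and with them the list held 4.59%. The pancreas list held 1.02%, of which the acinar miRNAs miR-216b and miR-217 gave 67.4% and 27.9%. The endocrine miR-375 gave 4.49% of that list with 2082.5 counts. The liver miRNA miR-122, the dominant miRNA of adult liver, held 15812 counts or 0.349% of the library. By counts, miR-122 lay below miR-216b (31310 counts) in these whole larvae.

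In the nervous system, miR-9-5p held 203283 counts and miR-9-3p 42187. The neuron list, with 9 families, held 2.02%. Its 3 most abundant arms were miR-153c-3p with 25435 counts, miR-218a of motor neurons with 20718 and miR-138-5p with 9855. The neuronal miR-124-3p, known for repressing non-neuronal transcripts, held 8483 counts. The list stood at 2.88% when names from other species were added, because the sequence filed as salmon miR-128-3p held 36483 counts, more than any zebrafish-named arm of the list. The oligodendrocyte miRNA miR-219-5p held 28750 counts or 0.634%, and miR-7a held 59618 or 1.31%. Of the miR-7a counts, 11600.5 lay on a substituted sequence with the letters of miR-7b.

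In muscle, miR-133a-3p held 94395 counts and gave 91.0% of the list. The other arms named by the rule were miR-133b-3p with 3553.5 counts and miR-499-5p, a slow-muscle and heart miRNA, with 2916.5. Of the miR-133b-3p counts, 3152.5 lay on a substituted sequence with the letters of miR-133c-3p. The muscle list stood at 2.29%, and this sum leaves out forms of miR-1 and miR-206 not analysed here. The smooth muscle list held 0.423%, nearly all of it miR-143 with 17812 counts, against 1331.6 for miR-145-5p.

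Cartilage and mesenchyme held 1.93%, led by miR-199-3p with 46108.5 counts and miR-140-3p, of cartilage, with 24725, and miR-140-5p held 8482. Endothelial miR-126a was present on both arms, with 7068 counts for 3p and 3934 for 5p. The immune list held 0.670%. Of its 5 families, 4 had a zebrafish-named row and 3 had a count above 0. Its leading arm miR-146a, a regulator of innate signalling, gave 92.5% of the list with 28128 counts. The related miR-146b held 1123 counts, and miR-142a-5p, of blood cells, held 462.2.

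The 5 lowest lists each held at most 0.104%. The hypoxia and interferon pair miR-462 and miR-731, known from fish, held 3638 and 1065 counts, 0.104% with the other arm of miR-462. The miR-430 family, which clears maternal transcripts in the early embryo, held 0.0932% with 4226.5 counts, although the RefSeq table lists 58 gene loci for it against 10 for miR-181. Its leading arms were miR-430a-3p with 1518 counts, miR-430b-5p with 1271.5 and miR-430b-3p with 771. Hair cell and photoreceptor miRNAs held 0.0891%, mostly miR-96-5p with 3239 counts and miR-96-3p with 802, while miR-182-5p held 1.22. The only zebrafish-named sequences of miR-182 and miR-183 were substituted, and that of miR-183 stood at 0. The share of this list is therefore close to that of miR-96 alone. The erythroid miR-144 held 2528 counts on 5p and 257.3 on 3p, and its list 0.0614%, although only 1 of the 3 families of that list had a zebrafish-named row. The gonad miRNA miR-202-5p was the scarcest leading arm, with 64 counts or 0.00141% (0.00109% to 0.00180%).

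Arms were compared within miRNA names, with the gene copies of a name pooled. For a name with several loci, such as miR-9 with 7, the ratio need not hold for each hairpin. Both arms were listed for 103 miRNAs, and 92 of these had at least 100 counts in sum. Of these, 88 were used, and miR-21, miR-138, miR-17a and miR-200c were left out because the leading sequences of their arms did not pair or held an unread base. The main arm was 5p for 53 and 3p for 35 miRNAs, and 96.7% of the counts of these pairs lay on the main arm. In 60 of the 88 one arm stood at least 10-fold above the other, in 31 at least 100-fold, and in 12 less than 3-fold. Several ratios of at least 100 rested on fewer than 10 counts of the lesser arm, as in miR-734 with 2 and miR-7148 with 1. For miR-155 the 3p arm had 0 counts, and 3 counts were used in its place. The median ratio was 51.1.

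**Figure D3:**
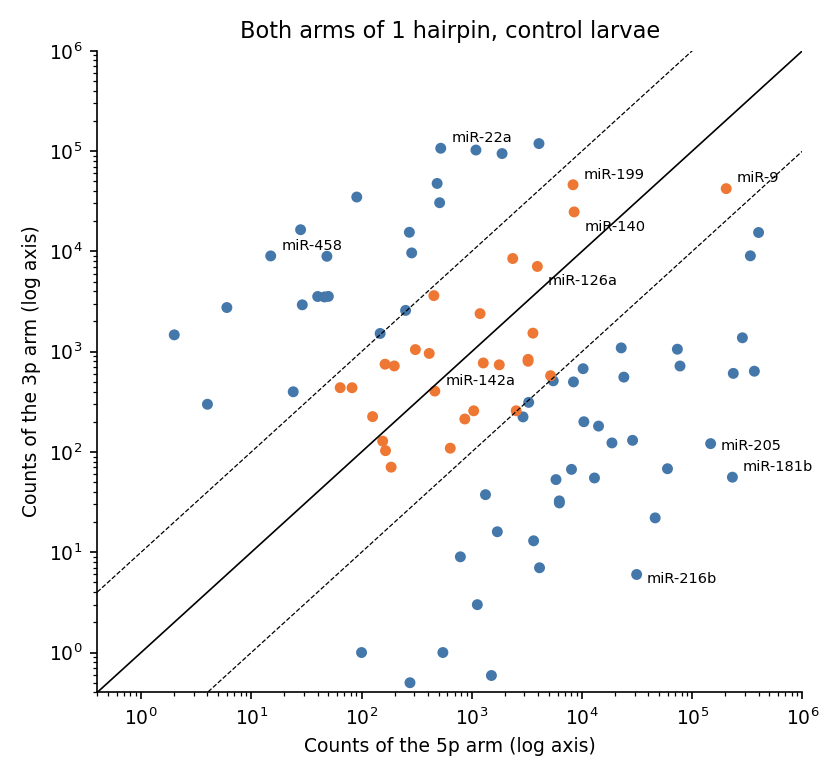
Each point is 1 of the 88 miRNA names used, gene copies pooled, with the counts of its 5p arm (x) and 3p arm (y) on log axes. The solid line marks equal counts, the dashed lines 10-fold, and counts below 0.5 are drawn at 0.5. Blue points are the 60 miRNAs at or beyond 10-fold, orange points the 28 within it. miR-142a lies near the solid line with 462.2 against 404.5 counts, and miR-216b lies far to the right with 31310 against 6.

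The largest ratio belonged to miR-216b, with 31310 counts on 5p and 6 on 3p, a ratio of 5218 (2397 to 14221). For miR-181b the counts were 231391 and 56, a ratio of 4132 (3182 to 5470). For miR-204 they were 46090.5 and 22, and for miR-205 they were 146860.5 and 121, ratios of 2095 and 1214. The 5p arm was the main one in all of these. All 56 counts of the miR-181b 3p arm lay on a substituted sequence, as did 20 of the 22 of miR-204. These 2 ratios therefore follow the 3p forms listed, and their intervals do not cover forms that are not listed. The ratio of 2554 for miR-130c rested on 0.59 counts of its 3p arm, with an interval from 270.1 to 59562, and the letters of its usual 3p arm stand in the table under miR-130a.

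At the other end, both arms stood at like levels. For miR-142a the counts were 462.2 on 5p and 404.5 on 3p, a ratio of 1.14 whose interval (0.999 to 1.31) includes equality. For miR-206 they were 155.5 and 128.1, a ratio of 1.21 (0.959 to 1.55), with forms of its 3p arm not analysed here. The ratios were 1.60 for miR-34c, a p53-responsive miRNA in mammals, 1.65 for miR-430b and 1.79 for miR-728. Among abundant miRNAs, miR-9 stood at 4.82 in favour of 5p, miR-199 at 5.56 in favour of 3p and miR-140 at 2.92 in favour of 3p.

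The ratio moved with the depth of the pair. Pairs above the median sum of 5440 counts had a median ratio of 95.9, and pairs at or below it 10.05. The part of counting depth in this difference was not tested. In 12 of the 88 pairs letters were shared with another miRNA name. The shared sequence was not always a leading one of the pair. For miR-7a it was a lesser form, and for miR-130c it was filed under miR-130a. Without these 12 pairs 50 of 76 reached 10-fold, and the median was 34.7. Paralogs of 13 families could be compared for their main arm, and they disagreed in the miR-430 family, where miR-430a and miR-430c favoured 3p and miR-430b favoured 5p. They also disagreed in the miR-153 family, where a 3p sequence shared by miR-153b and miR-153c is counted under miR-153c alone.

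The arms also differed in their first base, a base that human Argonaute proteins are known to read. Among sequences with at least 10 counts, 80 of 131 on main arms (61.1%) began with T and 17 of 104 on the other arms (16.3%). The other arms began with A in 41.3% and with C in 32.7%. By counts, T led 71.4% of main-arm counts and 37.3% of those on the other arms. The latter came to 44284.6 counts, most of them on miR-9-3p, whose seed AAAGCTA held 39733.7. The arms of a pair come from the same miRNA name and are not independent.

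Neighbouring genes were read from RefSeq (GRCz12tu), in which 173 of the 175 zebrafish miRNA names were found. Of 16 clusters of genes within 10 kb whose miRNAs had 1 locus each, 6 had at least 10 counts for every miRNA. The others had a member below 10 counts, as in miR-30d with 74618 counts beside miR-30b with 0.07. The only zebrafish-named sequence of miR-30b was substituted, as were those of miR-16a and miR-25. Such low values are those of the listed forms, and the level of the usual forms is unknown here. The median below leaves out clusters with a member below 10 counts and does not cover their wide spreads. In the 6, highest and lowest members differed by a median between 2.97-fold (miR-34b and miR-34c) and 3.43-fold (miR-462 and miR-731). For miR-216b and miR-217 the counts were 31316 and 13026, 2.40-fold apart, and for miR-30e and miR-30c they were 345802 and 78168, 4.42-fold apart. The cluster of miR-141, miR-429b and miR-200c spread over 235-fold, and the miR-141 count there is the one with the letters of miR-200a.

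The ends of the sequences were read from marks in the deposited names, where L and R give nucleotides gained or lost at the 5′ and 3′ end against the annotated form. In 34 of 34 cases with an unmarked form in the table, the marked sequence had the stated ends. Of the 218 arms with at least 10 counts, 126 had only 1 sequence above 0, and whether its count includes other forms is unknown here. The shares below are therefore shares of counts filed under a form. Sequences of 22 nt held 61.0% of the zebrafish-named counts, 23 nt 21.6% and 24 nt 14.1%.

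By counts, the 3′ end departed from the annotated form far more often than the 5′ end. This is a difference from the annotation and not a spread among reads. Arms such as miR-30e-5p and miR-10b-5p had 1 sequence above 0, with a changed 3′ end. A changed 3′ end was marked for 49.9% of the zebrafish-named counts (49.90% to 49.99%), with 31.1% longer and 18.8% shorter. A changed 5′ end was marked for 4.02% (4.005% to 4.041%), with 3.72% shorter and 0.304% longer. Names without any mark held 39.4%, and substituted names held 11.4%, 61.4% of that on the miR-26a-5p sequence shown above.

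**Figure D4:**
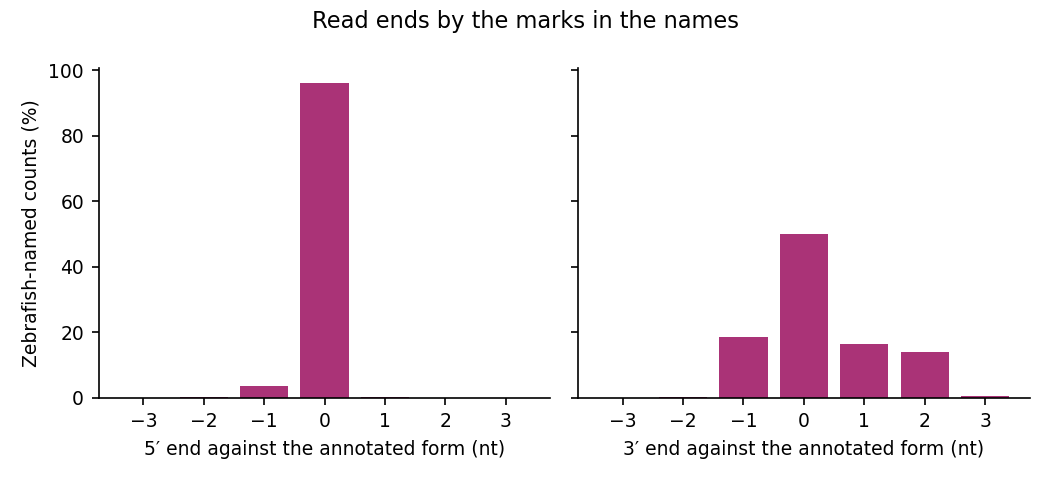
Bars show the percent of zebrafish-named counts by the change at the 5′ end (left) and 3′ end (right) in nucleotides against the annotated form, negative for shorter. At the 5′ end 96.0% of counts lie at 0 and 3.50% at −1, while at the 3′ end 50.1% lie at 0, 18.7% at −1, 16.5% at +1 and 14.0% at +2.

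Forms of the 10 most abundant arms followed no single direction. For miR-181a-5p the annotated form held 266088 counts (66.6%), the form shorter by 1 nt at 3′ 111343 (27.8%) and the form longer by 2 nt 22377 (5.597%). For miR-181b-5p only lengthened forms held more than 10 counts, 128897.5 (55.7%) at 1 nt and 102493.5 (44.3%) at 2 nt. The leading forms of both paralogs were 23 nt long with the same 5′ end, so their marks differ because the annotated forms differ in length. The second forms were 22 nt for miR-181a-5p and 24 nt for miR-181b-5p. For miR-9-5p the form shorter by 1 nt held 171851.5 counts (84.5%), and forms with another last base made up most of the rest, led by A23T with 26806.5. The other 7 arms rested on 1 form for at least 84.2% of their counts. It was the annotated form for miR-10c-5p, miR-21 and miR-205-5p, a form 2 nt longer for miR-30e-5p, 1 nt longer for miR-192, 1 nt shorter for miR-10b-5p and the substituted form for miR-26a-5p.

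**Figure D5:**
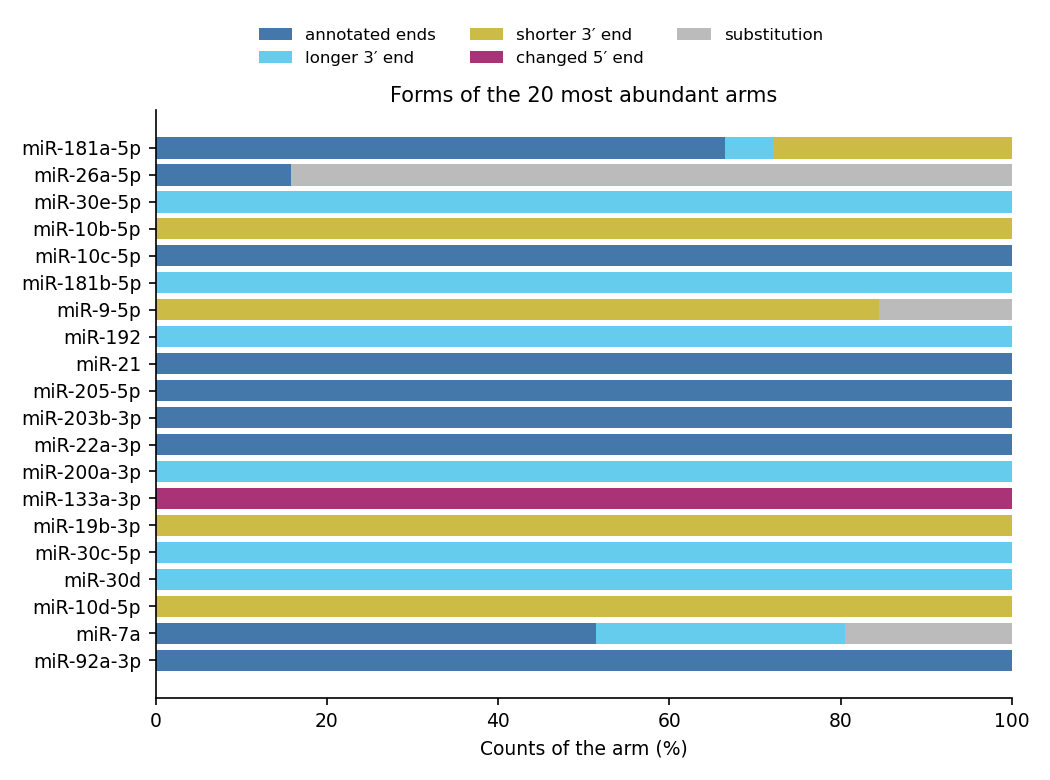
Stacked bars show, for each of the 20 most abundant arms, the percent of the arm's counts by form; a bar of 1 colour is an arm filed under 1 kind of form. The miR-133a-3p bar is wholly of a changed 5′ end, miR-181a-5p is split 66.6%, 27.8% and 5.597% between annotated, shorter and longer forms, and miR-26a-5p is 84.2% substituted.

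Of the forms lengthened by 2 nt at the 3′ end, 12 of 15 sequences ended in T, as did 36 of 54 lengthened by 1 nt and 54 of 139 with the annotated 3′ end. By counts these were 99.8%, 60.7% and 49.3%. The first value rested mainly on 1 family, the miR-30 arms miR-30e-5p, miR-30c-5p and miR-30d with 336779.5, 77449 and 74617.5 counts. Only the last base was read, and whether the added bases are templated by the hairpin was not tested. For miR-219-5p, forms with an added G and an added T each hold 9250.5 counts beside 10249 for the annotated form. Whether these identical estimated counts were measured apart is unknown here.

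Changed 5′ ends were concentrated in 3 sequences, which held 79.6% of such counts. They are shown with the forms that start elsewhere, because the shift changes the seed in capitals.
miR-133a-3p, 1 nt shorter: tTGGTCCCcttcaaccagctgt
miR-140-3p, 1 nt shorter: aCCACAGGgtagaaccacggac
miR-199-3p, annotated: tACAGTAGtctgcacattggtt
miR-199-3p, 1 nt shorter: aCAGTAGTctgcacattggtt
miR-204-5p, annotated: tTCCCTTTgtcatcctatgcct
miR-204-5p, 1 nt longer: tTTCCCTTtgtcatcctatgcct
The shortened miR-133a-3p and miR-140-3p were the only sequences of their arms above 0. The miR-199-3p arm was divided between 5′ ends, with 23960.5 counts at the annotated start and 21996 at the next base, so the seeds ACAGTAG and CAGTAGT stood nearly level. For miR-204-5p the annotated start held 40076 counts and the longer form 6014, 87.0% and 13.0%. Among 27 arms with more than 1 unsubstituted form of at least 10 counts, the leading form held a median of 66.6%. Forms with different starts were also listed for miR-430b-5p, with 1084 and 59 counts, and for miR-430c-3p, with 321.5 and 51. A mark refers to the hairpin copy in the name: the 2679.5 counts of miR-455-2-5p are marked 1 nt shorter at the 5′ end, but that sequence starts at the same base as miR-455-5p with 2507.5.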

How the data were processed

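Small RNA libraries of whole larvae were made with the TruSeq small RNA kit and read as 36-base single-end reads, per the labels' protocols. Not given in the sources used here are the aligner, counter and miRNA database, while Zv9 is the build named in the submitters' processing notes. The raw column deposited by the authors holds estimated counts of reads per sequence with no scaling (per the file headers). Of the values above 0 in the control library 68.8% are whole (tolerance 1e-09). The authors also deposited a normalised signal, which in the control library is the count times 1.18. Shares here use the raw counts, unrounded, and each table holds 1 emptied line.

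Rows with the same sequence were kept once, under the most abundant row and, on ties, the name with the fewest marks. The 20 most abundant families, the 10 most abundant arms, the 3 most abundant arms of each list, and the 5 largest and 5 smallest arm ratios among pairs with at least 100 counts were named by rule. Further miRNAs were picked once their values were known. The members and lists were chosen with earlier results of these data known. The duplex limit of -10 kcal/mol (RNAduplex 2.7.2), the 10-kb gap between neighbouring genes and the search for shared letters were settled later, with values in view. The RefSeq table (GRCz12tu) gave names and neighbours only. The shares and intervals were tested on multinomial draws from the observed shares, which is the counting model that the intervals assume. Their coverage in these draws does not bear on PCR duplicates, fractional counts or uneven capture of sequences. The reading of names was tested on a few written examples. Python 3.11.15, pandas 2.3.3, scipy 1.17.1 and matplotlib 3.10.9 were used.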

Additional observations from a re-analysis of the deposited data

Results flagged for a closer look

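Signal stood in sequences of the control library outside the zebrafish-named ones, above the limit that a count of 0 allows (3 counts). Sequences named for other species held 2.755% of the counts (2.740% to 2.770%), and 84.9% of that lay in families that also have a zebrafish name. The highest was the sequence filed as salmon miR-128-3p with 36483 counts, followed by anole miR-194-5p with 17338 and anole miR-200b-3p with 13044. The zebrafish-named miR-194a and miR-200b, whose genes lie beside miR-192 and miR-200a, held 0.51 and 18.67 counts. Those of miR-200b lay on a substituted 5p sequence, which is not the arm of the anole sequence. Candidate sequences without a known miRNA name held 0.01976%, and none passed 69 counts. Sequences on hairpin arms that the annotation does not name held 0.06548%, or 2969 counts over 24 sequences above 0.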

How the results depend on the processing

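Of 44 alternative values for 7 results, 30 stayed within the counting interval or within 1.5 times a count, and 14 moved. miR-181 led in every alternative by family. Without substituted sequences the 10 most abundant arms held 50.4%, the leading family 14.2%, changed 5′ ends 4.40% and changed 3′ ends 54.0%. With every row of a sequence counted these were 59.9%, 15.4%, 3.25% and 48.7%. As a share of zebrafish-named counts the first pair became 58.1% and 14.7%. With names from other species the leading family held 14.5% and changed 3′ ends 49.6%, with counts split over arm names changed 3′ ends held 49.8%, and by shared seed the leading group held 13.9%. The cause of these shifts was not tested beyond the sequences each setting adds or removes. Moving substituted sequences to the name whose letters they hold was chosen after seeing the data and kept 19 of the 20 leading families. In that setting miR-20 stood at rank 25. Adding names from other species also kept 19, with miR-128 (0.808%) at rank 20 above miR-153. Ends were not matched to reference hairpins, which were not used here. No paired analysis was possible because the control group has 1 library and no comparison was made.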

Other observations

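Some miRNAs outside the 20 leading families and the lists held over 10000 counts. The miR-301a sequence, of the miR-130 seed group, held 24719.5 counts or 0.545% of the library, miR-459 held 23771 (0.524%), miR-103 held 21780 (0.480%) and miR-15b held 18808 (0.415%). Of miRNAs encoded beside each other at more than 1 place in the genome, miR-125b held 10909.5 counts and miR-100 held 5993, 1.82-fold apart. The miR-125b count pools 3 loci and the miR-100 count 2, so this is not a comparison of neighbours alone. The single locus of miR-27b lies beside a miR-24 gene, and miR-27b held 15763.5 counts against 3775 for miR-24, 4.18-fold apart. The miR-24 count pools 4 loci. By contrast miR-133a held 96278 counts on both arms together and its neighbour miR-1, with forms not analysed here, held 408.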
